A study of Mus musculus with 15 samples.

Results

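The MHC class I presentation genes described here are the mouse genes H2-K1, H2-D1, B2m, Tap1, Tap2, Tapbp, Psmb8, Psmb9, Nlrc5 and Cd1d1, a list made by name. No cut on a measured value defined the list, but it was chosen with earlier results of these data known. They are 10 of the 48795 genes listed for each sample, and all 10 passed the filter on low counts that left 13600 genes for testing. Polyadenylated RNA was sequenced from invariant natural killer T (iNKT) cells sorted from 4 lymphoid tissues of untreated wild-type C57BL/6 mice aged 6 weeks. The sorted cells bound CD1d tetramers carrying PBS57, were positive for TCRβ and were negative for B220, CD11b, CD11c and CD8. There were 4 samples from the thymus, 4 from the spleen, 4 from the mesenteric lymph node (mLN) and 3 from the inguinal lymph node (iLN, replicates 2, 3 and 4).

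MHC class I molecules show the cell's own peptides to CD8 T cells. Proteasomes cut proteins into peptides, the TAP transporter moves these into the endoplasmic reticulum, and tapasin helps to load them onto a heavy chain paired with β2-microglobulin, while the transactivator NLRC5 drives transcription of many of these genes. CD1d is a relative of the class I heavy chains that also pairs with β2-microglobulin, and it presents lipids to iNKT cells, which are selected in the thymus by CD1d on other thymocytes.

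The labels put 8 samples in a first batch (replicates 3 and 4) and 7 in a second (replicates 1 and 2), so the first batch holds 2 iLN samples and the second 1. Total expected counts per sample, a count of read pairs assigned to genes, ran from 1152702 to 8161474 in the thymus, from 4919511 to 8670570 in the spleen, from 4740370 to 7914302 in the mLN and from 4080550 to 5360793 in the iLN. Thymus replicate 2 had the fewest. The labels call the replicates biological but do not say whether each was 1 mouse or a pool, so p-values measure the spread between these samples. Lymph nodes were digested with collagenase and DNAse while spleen and thymus were strained, so tissue and digestion cannot be told apart where lymph node is compared with spleen or thymus. In bulk samples such as these, fewer cells of a type and less RNA per cell cannot be told apart either.

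The sort label was checked against marker genes, using counts scaled by library size and TMM (CPM). The summed level of 10 iNKT and T cell genes ran from 2782 CPM in spleen replicate 1 to 4908 CPM in spleen replicate 4, and Cd3e, a chain of the T cell receptor complex, had the highest mean of them with 862 to 1509 CPM. Of the 9 tested, edgeR called Zbtb16 higher (0.71, edgeR adjusted p = 0.00538) and Il2rb lower (-0.63, edgeR adjusted p = 0.00734) in lymph node minus spleen and thymus (against 1.72% of all genes), 1 gene higher in iLN minus thymus (against 1.5%) and 0 in the other 5 directional comparisons. The part of these differences in later results was not tested. Summed B cell markers (8 genes, Cr2 with the highest mean) had a median of 12.1 CPM over the 15 samples but reached 181 CPM in spleen replicate 1. Summed MHC class II and chaperone genes (7 genes, Cd74 with the highest mean) had a median of 48.99 CPM, with 325 CPM in spleen replicate 1 and 201 CPM in mLN replicate 1. These class II sums were 16.8 to 22.1 CPM in the thymus, below all 4 spleen and all 4 mLN samples, and their part in the differences between tissues was not tested. Markers of double positive thymocytes and CD8 T cells, summed without Cd4, came to 14.05 to 73.5 CPM in the thymus, with the most in replicate 2, against 3.99 to 14.4 CPM in the spleen and 2.89 to 9.34 CPM in the lymph nodes, and their part was not tested either. A result that rests on spleen replicate 1 is given with and without it below.

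Ordered by TPM, which is scaled for gene length and allows genes to be compared, the 10 genes spanned from near the top of the transcriptome to a modest level. B2m, the light chain shared by all class I molecules, had a mean of 5039 TPM over the 15 samples and ranked 10 among all genes. The classical heavy chains came next, H2-K1 with 1539 TPM (rank 49) and H2-D1 with 667 TPM (rank 139). The immunoproteasome subunits Psmb9 and Psmb8 had means of 228 and 142 TPM (ranks 359 and 573). Tapasin, encoded by Tapbp, had a mean of 96.7 TPM (rank 857), and Tap1, a chain of the peptide transporter, had 55.1 TPM (rank 1693). Nlrc5 had a mean of 82.7 TPM (rank 1046), with ranks of 808 in the thymus, 710 in the spleen, 1376 in the mLN and 2364 in the iLN. Tap2, the partner of Tap1, had 13.3 TPM (rank 6205) and Cd1d1 had 10.21 TPM (rank 7233), the lowest mean level of the 10. Spleen replicate 1 had 36.4 TPM of Cd1d1, and the other samples had 3.31 to 14.2 TPM.

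**Figure D1:**
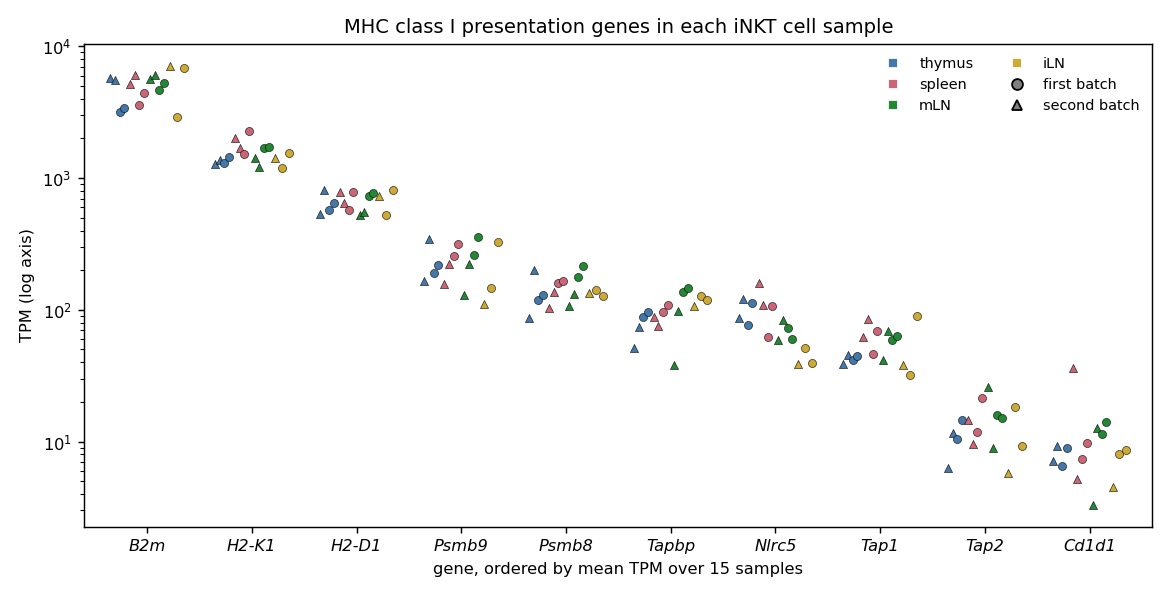
Level in TPM (log axis) of each of the 10 genes in each of the 15 samples, coloured by tissue, with circles for the first batch and triangles for the second. B2m runs from 2888 to 7102 TPM and Cd1d1 from 3.31 to 36.4 TPM, and the 3 iLN samples hold the lowest Nlrc5 levels.

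Which of these genes differ between iNKT cells of different tissues was asked with edgeR, with tissue and batch in the model and p-values adjusted over all 13600 genes. A gene counts as called at an adjusted p under 0.01 with a fold over 1.5. Nlrc5 was called in 3 of the 7 directional comparisons, always lower in lymph node cells, and no other gene of the 10 was called in any. Between iLN and spleen 1 of the 10 genes was called, against 1.55% of all genes tested. Between iLN and thymus 1 of the 10 was called, against 1.5% of all genes. Between the 7 lymph node samples and the 8 spleen and thymus samples 1 of the 10 was called, against 1.72% of all genes. A test of any difference among the 4 tissues, with no fold minimum, called 1 of the 10 (Nlrc5), against 3.38% of all genes. With counts of 0 or 1 in 10, these shares say little about the group of genes as a whole.

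In the other 4 comparisons edgeR called 0 of the 10 genes, and so did DESeq2 and limma. In thymus against spleen the background was 1.32% of all genes, and 2 of the 10 genes had an unadjusted p under 0.05. In mLN against spleen the background was 0.654%, and 3 of the 10 had an unadjusted p under 0.05. In mLN against thymus the background was 1.6%, and 1 of the 10 had an unadjusted p under 0.05. In iLN against mLN the background was 0.471%, and 2 of the 10 had an unadjusted p under 0.05. Among all genes tested, 10.6%, 12.2%, 13.5% and 13.8% had an unadjusted p under 0.05 in these 4 comparisons.

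The direction of the whole set was uneven. In thymus minus spleen the median log2 fold change of the 10 genes was -0.24, against -0.01 over all genes tested, and all 10 values were negative. That count was 7 negative and 3 positive in the second batch alone, and 9 of 10 without spleen replicate 1, 2, 3 or 4. In iLN minus spleen the median was -0.44 with 8 of 10 values negative, against 0.01 over all genes. In mLN minus thymus it was 0.19 with 8 of 10 values positive, against 0.03 over all genes. The remaining medians were -0.10 in mLN minus spleen, -0.08 in iLN minus thymus, -0.29 in iLN minus mLN and -0.15 in lymph node minus spleen and thymus. Several medians rest on few samples. Leaving out 1 sample gave -0.34 to -0.18 in thymus minus spleen, -0.61 to -0.25 in iLN minus spleen, 0.09 to 0.19 in mLN minus thymus, -0.18 to -0.07 in mLN minus spleen and -0.35 to -0.23 in iLN minus mLN. It gave -0.22 (without iLN replicate 3) to -0.09 (without spleen replicate 1) in lymph node minus spleen and thymus. In iLN minus thymus it gave -0.23 without iLN replicate 3 and turned positive without iLN replicate 4, at 0.04 with 6 of 10 values positive. With limma the latter was 0.01, also with 6 of 10 positive, and the lymph node median was -0.00492 with 5 of 10 positive. In the first and second batch the median was -0.12 and -0.21 in mLN minus spleen and -0.11 and -0.18 in iLN minus thymus. It was -0.15 and -0.37 in iLN minus mLN, 0.17 and 0.09 in mLN minus thymus, and -0.14 and -0.04 in lymph node minus spleen and thymus. These comparisons share samples, and each gives its own values rather than independent support.

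**Figure D2:**
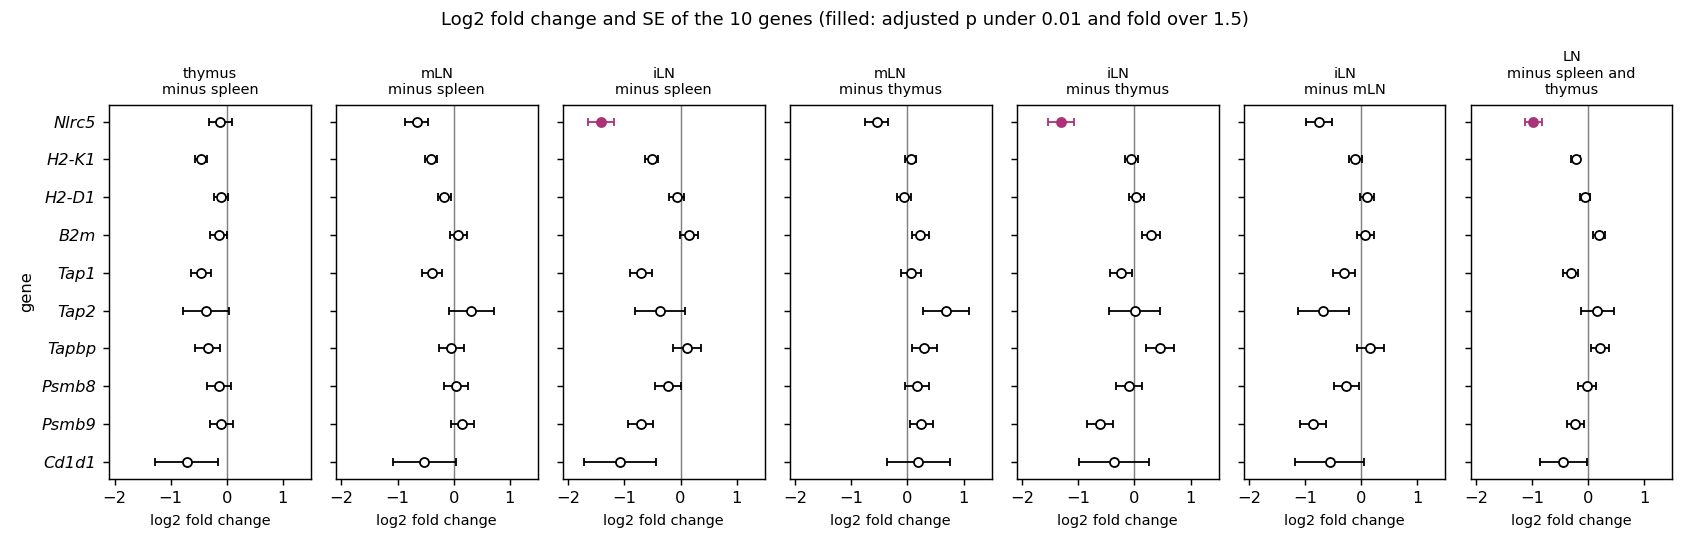
Log2 fold change (point) and SE (bar) of each of the 10 genes in the 7 directional comparisons, from edgeR with tissue and batch, with genes past adjusted p 0.01 and fold 1.5 filled. Nlrc5 is filled in iLN minus spleen (-1.42), iLN minus thymus (-1.31) and lymph node minus spleen and thymus (-0.98).

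Nlrc5 (ENSMUSG00000074151) encodes the transactivator of class I genes. Its CPM was 129.7, 139.7, 154 and 162 in thymus replicates 1 to 4 and 161, 136, 142 and 194 in spleen replicates 1 to 4. It was 76.5, 140.0, 103 and 79.6 in mLN replicates 1 to 4 and 56.5, 76.1 and 46.5 in iLN replicates 2, 3 and 4. In CPM the iLN samples lay below every sample of the other tissues, by a narrow margin to the mLN, and they were also the lowest in TPM. On the CPM scale mLN replicate 2 lay among the thymus and spleen samples, and the other 3 mLN samples lay below them all. Means were 146 ± 14.6 CPM in the thymus (SD, n = 4), 158 ± 26.0 in the spleen (n = 4), 99.7 ± 29.3 in the mLN (n = 4) and 59.7 ± 15.1 in the iLN (n = 3). Thymus and spleen, the neighbours at the top of this order, overlapped in their samples. In expected counts the level was 1051, 190.0, 560.0 and 855 in the thymus, 1630.0, 903, 571 and 952 in the spleen, 590.0, 965, 494 and 413 in the mLN and 315, 281 and 272 in the iLN. Even the thinnest library, thymus replicate 2, thus held 190.0 counts of the gene.

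In edgeR, Nlrc5 was lower in the iLN than in the spleen, with a log2 fold change of -1.42 (SE 0.23, adjusted p = 0.00129) and all 3 iLN samples below all 4 spleen samples. Against the thymus the iLN value was -1.31 (SE 0.23, edgeR adjusted p = 0.00251), again with all 3 samples below. Over both lymph nodes against spleen and thymus it was -0.98 (SE 0.15, edgeR adjusted p = 6.68e-04). In CPM 6 of 7 lymph node samples lay below all 8 others. In TPM, however, mLN replicate 3 (73.4 TPM) lay above spleen replicate 3 (62.4 TPM). The mLN gave intermediate differences that did not pass, -0.66 from the spleen (edgeR adjusted p = 0.139) and -0.55 from the thymus (edgeR adjusted p = 0.206). The iLN lay -0.76 from the mLN (edgeR adjusted p = 0.107), and thymus and spleen differed by -0.11 (edgeR adjusted p = 0.941).

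The Nlrc5 difference had the same sign and a similar size in each batch. In iLN minus spleen it was -1.48 in the first batch and -1.41 in the second, and in iLN minus thymus -1.38 and -1.26. In lymph node minus spleen and thymus it was -1.14 and -0.86. No single batch passed the threshold in edgeR (adjusted p = 0.0202 and 0.275, 0.0253 and 0.457, 0.0108 and 0.278). The iLN call against the spleen was lost without iLN replicate 2 (-1.40, edgeR adjusted p = 0.0102). The iLN call against the thymus was lost without thymus replicate 3 (-1.29, adjusted p = 0.0113), thymus replicate 4 (-1.26, 0.0132), iLN replicate 2 (-1.29, 0.0161) or iLN replicate 4 (-1.17, 0.0175), all from edgeR. The call for both lymph nodes together was kept without any 1 of the 15 samples. All 3 calls were lost with limma on log2(TPM + 1), and the iLN call against the spleen also when only those groups were fitted.

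**Figure D3:**
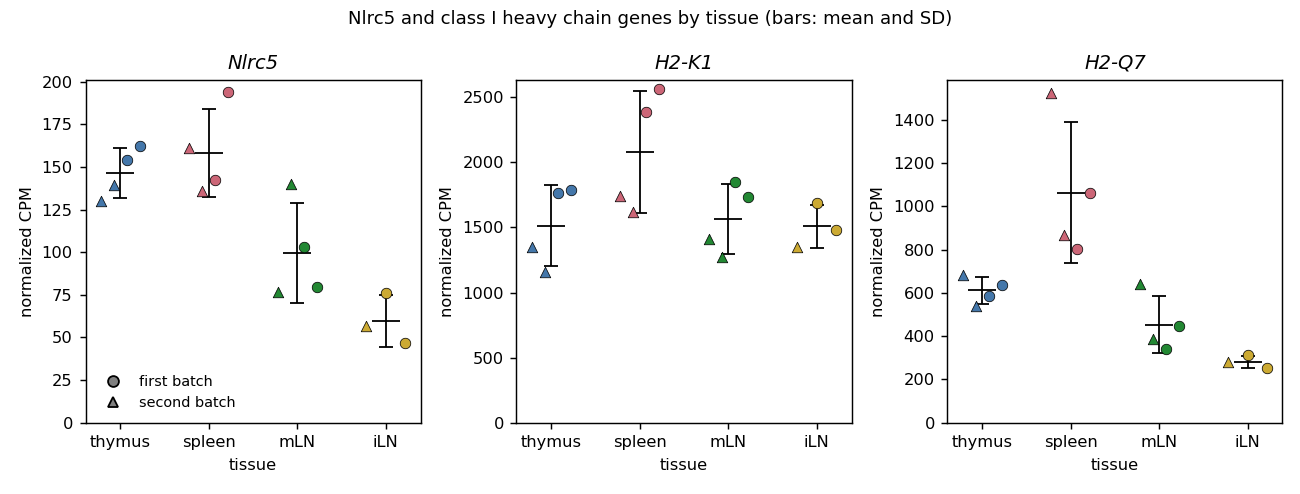
Level in CPM of Nlrc5, H2-K1 and H2-Q7 in each sample by tissue, with the mean and SD as bars, circles for the first batch and triangles for the second. Nlrc5 is lowest in the 3 iLN samples (46.5 to 76.1 CPM). Within each batch the spleen samples hold the highest H2-K1 and H2-Q7 levels in CPM, but not all do in TPM.

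H2-K1 and H2-D1 are the classical class I heavy chains of C57BL/6 mice. H2-K1 had 1348, 1154, 1767 and 1788 CPM in the thymus and 1741, 1618, 2386 and 2563 CPM in the spleen. It had 1408, 1271, 1849 and 1730.1 CPM in the mLN and 1352, 1686 and 1483 CPM in the iLN. Pooled over batches the tissues overlapped, but within each batch both spleen samples lay above every sample of the other tissues in CPM. In TPM, spleen replicate 3 (1519) lay below mLN replicates 3 and 4 (1681 and 1728) and iLN replicate 4 (1550) of its batch. The log2 difference was -0.45 in thymus minus spleen (SE 0.11, edgeR adjusted p = 0.0248), -0.40 in mLN minus spleen (edgeR adjusted p = 0.0792) and -0.51 in iLN minus spleen (SE 0.12, edgeR adjusted p = 0.0158). None met both thresholds, as each fold was under 1.5 and each adjusted p over 0.01. Within the first and second batch the thymus minus spleen value was -0.49 and -0.44, and the iLN minus spleen value -0.66 and -0.33.

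H2-D1 differed less. Its means were 916 ± 131 CPM in the thymus, 988 ± 185 in the spleen, 883 ± 178 in the mLN (SD, n = 4 each) and 962 ± 12.4 in the iLN (n = 3), and every pair of tissues overlapped. Its log2 fold changes ran from -0.17 in mLN minus spleen to 0.10 in iLN minus mLN. The ratio of H2-K1 to H2-D1 within a sample, which does not depend on library size, had log2 values of 1.27, 0.75, 1.18 and 1.16 in the thymus and 1.35, 1.39, 1.42 and 1.54 in the spleen, from TPM. The thymus and spleen values did not overlap, and the mean difference was -0.34 (two-sided exact permutation p = 0.0286), the smallest that 4 against 4 samples allow. Adjusted over the 8 ratio tests made, that exact permutation p was 0.114, which did not pass 0.05. The lymph nodes differed from spleen and thymus by -0.12 in this log2 ratio (two-sided exact permutation p = 0.299, adjusted 0.399).

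B2m had 2978, 2286, 2122 and 2055 CPM in the thymus and 2187, 2835, 2794 and 2499 CPM in the spleen. It had 2986, 2961, 2472 and 2603 CPM in the mLN and 3406, 1961 and 3154 CPM in the iLN. The iLN held both the highest and the lowest of these 15 values, and all tissues overlapped. Its log2 fold changes ran from -0.14 in thymus minus spleen to 0.30 in iLN minus thymus (edgeR adjusted p = 0.364), and none passed. Nlrc5 and B2m therefore had opposite signs in the lymph node comparison, -0.98 and 0.19.

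Promoters are shown for H2-K1, H2-D1 and B2m because the NLRC5 complex acts through short elements in class I promoters, and these let a reader see what the 3 most abundant genes share. The sequences are from RefSeq (GRCm38.p6), 250 bases before to 50 after the gene's start, 5′ to 3′, with motif matches in capitals. H2-K1, of which 1 of 2 listed starts is shown, is at chr17:34000284-34000583 on the minus strand, H2-D1 at chr17:35262844-35263143 on the plus strand and B2m at chr2:122147437-122147736 on the plus strand.
H2-K1: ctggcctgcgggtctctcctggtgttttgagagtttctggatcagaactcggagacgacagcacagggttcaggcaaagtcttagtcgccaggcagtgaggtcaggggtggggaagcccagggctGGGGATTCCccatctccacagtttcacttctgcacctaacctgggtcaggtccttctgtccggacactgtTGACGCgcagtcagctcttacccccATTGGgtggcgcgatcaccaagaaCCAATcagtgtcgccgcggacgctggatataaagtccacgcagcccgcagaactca
H2-D1: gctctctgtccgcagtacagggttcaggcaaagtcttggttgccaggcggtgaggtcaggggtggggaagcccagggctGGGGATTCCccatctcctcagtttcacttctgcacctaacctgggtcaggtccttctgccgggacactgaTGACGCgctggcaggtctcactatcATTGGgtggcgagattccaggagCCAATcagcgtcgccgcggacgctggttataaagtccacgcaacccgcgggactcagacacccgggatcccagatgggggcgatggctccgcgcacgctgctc
B2m: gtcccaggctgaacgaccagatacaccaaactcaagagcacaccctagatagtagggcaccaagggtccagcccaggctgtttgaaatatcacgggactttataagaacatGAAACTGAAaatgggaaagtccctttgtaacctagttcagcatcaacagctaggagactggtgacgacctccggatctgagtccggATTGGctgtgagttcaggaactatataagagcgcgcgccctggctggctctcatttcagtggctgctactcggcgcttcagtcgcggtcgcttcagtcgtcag
The motifs searched on both strands, given here with the share of all 32851 promoters that hold each, were CCAAT (the Y box, 37.4%), TGACGC (part of the X2 box, 7.40%), GGGNNTTCC (a kB site, 5.82%), GAAANNGAA (an interferon response core, 8.56%) and TTCNNNGAA (a GAS site, 8.30%). H2-K1 and H2-D1 hold the same arrangement, a kB match followed by TGACGC and then by 2 Y box matches, 1 on each strand. The promoter of B2m holds an interferon response core and 1 Y box match. The table had promoters for 7 of the 10 genes, 8 in all, and 7 of those 8 held CCAAT on either strand. Of the rest, Psmb8 alone held a GAS match, and Tap1, Psmb9 and Tapbp held only Y box matches. Only these exact patterns were searched, and a variant that differs in a letter or in length is missed. The lack of a match, as for kB in B2m or the interferon response core in H2-K1 and H2-D1, does not show that an element is absent. A match is a description of the letters, and nothing here measured binding.

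Of the 29 other heavy chain and related genes on a list of the class I family, 13 could be tested. H2-Q7, a nonclassical heavy chain of the Qa-2 group, had 681, 541, 586 and 637 CPM in the thymus and 1521, 865, 802 and 1060.2 CPM in the spleen. It had 639, 388, 340.4 and 445 CPM in the mLN and 279, 312 and 254 CPM in the iLN. In CPM every spleen sample lay above every sample of the other tissues, and the 3 iLN samples lay below all others. In TPM the iLN samples were again the lowest. On that scale spleen replicate 3 (346 TPM) lay below thymus replicate 2 (366 TPM) and mLN replicate 4 (352 TPM). The log2 fold change was -1.87 in iLN minus spleen (SE 0.22, edgeR adjusted p = 3.93e-05), -1.23 in mLN minus spleen (edgeR adjusted p = 0.00274), -1.09 in iLN minus thymus (edgeR adjusted p = 0.00586) and -1.16 in lymph node minus spleen and thymus (SE 0.14, edgeR adjusted p = 7.90e-05). Within the first and second batch the last of these was -1.19 and -1.18. The iLN minus thymus call was lost without thymus replicate 1 (-1.07), 3 (-1.07) or 4 (-1.02) or iLN replicate 2 (-1.001) or 4 (-1.06). The mLN minus spleen call was lost without spleen replicate 4 (-1.19) or mLN replicate 3 (-1.13). Both of these calls were also lost in either batch alone and with limma, the first with no batch term and the second with only the groups compared, and the lymph node call was lost with limma.

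The related H2-Q5 was lower by the same tests in iLN minus spleen, at -2.72 (SE 0.42, edgeR adjusted p = 8.86e-04), and in lymph node minus spleen and thymus, at -1.55 (edgeR adjusted p = 0.00171). It had 147, 56.96, 113 and 139.7 CPM in the spleen and 9.87, 21.1 and 25.3 CPM in the iLN, with no overlap. H2-Q10 was also lower in iLN minus spleen, at -2.36 (edgeR adjusted p = 0.00651), and in lymph node minus spleen and thymus, at -1.41 (edgeR adjusted p = 0.00976). Its iLN call was lost without thymus replicate 3 or 4, spleen replicate 1, 3 or 4, or iLN replicate 2 or 4 (log2 fold change from -2.35 to -2.09). Its lymph node call was lost without thymus replicate 1, 3 or 4, spleen replicate 1, 3 or 4, mLN replicate 2, 3 or 4, or iLN replicate 2 or 4 (-1.41 to -1.28). All calls of H2-Q7 and H2-Q5 were lost in the second batch alone, and those of H2-Q10 in either batch and with limma. In H2-Q10 the iLN call was also lost with only the groups compared and the lymph node call with no batch term. Over the 13 genes, 3 were lower and 0 higher in iLN minus spleen, against 1.55% of all genes called, with a median of -0.97, against 0.01 over all genes, and the median in thymus minus spleen was -0.37.

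Reads of these genes are hard to tell apart, because heavy chains resemble each other. Of the distinct stretches of 50 bases in the annotated transcripts of GENCODE M21, H2-K1 shares 9.63% with other class I genes, H2-D1 10.9%, H2-Q10 18.4%, H2-Q7 24.5% and H2-Q5 36.1%. Single values for the H2-Q genes are therefore uncertain. The counts of the heavy chain genes in the files, apart from H2-Bl, were added up. This sum was lower in the iLN than in the spleen by -0.70 in log2 (SE 0.12, edgeR adjusted p = 0.00159). In mLN minus spleen that sum gave -0.55 (edgeR adjusted p = 0.00970), with a fold under 1.5, and in thymus minus spleen -0.47 (edgeR adjusted p = 0.0167). In iLN minus thymus it gave -0.23 (edgeR adjusted p = 0.334), in mLN minus thymus -0.08 (0.837), and in lymph node minus spleen and thymus -0.39 (0.00626) with a fold under 1.5, so H2-Q7 was called in comparisons where the sum was not. The share of the sum that came from H2-Q7 was 15.6% to 28.4% in the spleen, 14.7% to 20.1% in the thymus, 9.17% to 18.2% in the mLN and 7.80% to 9.49% in the iLN. B cell markers were highest in spleen replicate 1, which also had the highest H2-Q7 level. The correlation of log2 H2-Q7 with log2 summed B cell markers (n = 15, batch means not removed) was 0.54, or -0.05 without the 2 samples farthest from the median. It was 0.21 within the first batch and 0.68 within the second, and the markers' part in the result was not tested.

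Tap1 and Tap2 form the peptide transporter, and Tapbp encodes tapasin, which bridges it to the heavy chain. Tap1 had 91.7, 72.0, 109.9 and 112 CPM in the thymus and 114, 131, 138 and 141 CPM in the spleen. It had 71.4, 109.8, 99.7 and 121 CPM in the mLN and 56.2, 90.8 and 113 CPM in the iLN. In CPM the spleen lay above all thymus and iLN samples and above every mLN sample of its own batch, but in TPM iLN replicate 4 was the highest of all (90.05 TPM against 46.3 to 84.6 TPM in the spleen). The log2 fold change was -0.70 in iLN minus spleen (SE 0.20, edgeR adjusted p = 0.0537), -0.47 in the first batch, -1.15 in the second and -0.42 with limma on log2(TPM + 1). In thymus minus spleen it was -0.46 (edgeR adjusted p = 0.299), and neither passed. Tap2 ran from 12.02 CPM in iLN replicate 2 to 48.9 CPM in mLN replicate 1, with every pair of tissues overlapping, and its largest difference was 0.68 in mLN minus thymus (SE 0.41, edgeR adjusted p = 0.519). Tapbp ran from 67.7 CPM in mLN replicate 1 to 287 CPM in iLN replicate 3, and its largest difference was 0.46 in iLN minus thymus (SE 0.24, edgeR adjusted p = 0.363). Of 8 further loading and trimming genes, such as those for calreticulin and the peptidase ERAP1, 0 were called by edgeR in any comparison, against 4.16% of all genes called in at least 1, so a count of 0 says little.

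Psmb8 and Psmb9 encode catalytic subunits that replace Psmb5 and Psmb6 when the immunoproteasome is built, and Psmb10, which is outside the 10 genes, replaces Psmb7. Psmb9 had 121, 163, 178 and 180.0 CPM in the thymus and 83.3, 167, 244 and 217 CPM in the spleen. It had 123, 172, 217 and 270.5 CPM in the mLN and 75.2, 159 and 116 CPM in the iLN. In CPM the iLN values were low but overlapped those of every other tissue, and spleen replicate 1 lay between iLN replicates 2 and 4. In TPM, iLN replicate 4 had 326 TPM of Psmb9, within the mLN range of 129.8 to 358 TPM. The largest difference was -0.87 in iLN minus mLN (SE 0.23, edgeR adjusted p = 0.0652), which was -0.47 with limma on log2(TPM + 1) and passed only without a count filter (-0.88, edgeR adjusted p = 0.00658). Psmb8 ran from 95.9 CPM in spleen replicate 1 to 253 CPM in spleen replicate 3, so its whole range lay within the spleen. Its log2 fold changes ran from -0.27 in iLN minus mLN to 0.18 in mLN minus thymus. Across the 15 samples the 2 genes had the closest relation of any of the 45 pairs among the 10, with r = 0.73 for log2 CPM after each batch's mean was removed (rho = 0.80, 0.53 without 2 samples, 0.89 and 0.59 within batches).

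The ratio of each immunoproteasome subunit to the subunit it replaces was taken within each sample from TPM. For Psmb8 to Psmb5 the log2 ratio was -0.02, 0.999, 0.99 and 1.10 in the thymus and 1.66, 2.05, 1.24 and 1.19 in the spleen. It was 1.12, 0.72, 1.30 and 1.69 in the mLN and 2.88, 2.22 and 1.53 in the iLN. All thymus values lay below all spleen values, and thymus replicate 1 lay near an equal level of both subunits. The mean difference in thymus minus spleen was -0.76 (two-sided exact permutation p = 0.0286, adjusted 0.114), the smallest raw p the design allows, but it came to -0.17 in the first batch and -1.36 in the second. In lymph node minus spleen and thymus it was 0.49 (two-sided exact permutation p = 0.180, adjusted 0.289), 0.56 in the first batch and 0.40 in the second.

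For Psmb9 to Psmb6 the log2 ratio was 2.46, 2.48, 2.47 and 2.73 in the mLN, a tight set, and 1.002, 2.29 and 2.83 in the iLN, a wide one. Thymus values ran from 1.86 to 2.10 and spleen values from 1.35 to 2.43, so that the mLN lay above all samples of both. The lymph node difference was 0.37 (two-sided exact permutation p = 0.154, adjusted 0.289), and without iLN replicate 2 it was 0.59 (exact permutation p adjusted 0.0133), which passes 0.05. It was 0.51 in the first batch and 0.15 in the second. The thymus and spleen differed by 0.01 (two-sided exact permutation p = 0.971), with opposite signs in the first batch (-0.31) and the second (0.33). For Psmb10 to Psmb7 the lymph node difference was -0.40 (two-sided exact permutation p = 0.153, adjusted 0.289), with -0.38 and -0.35 within batches, and the thymus minus spleen difference was -0.25 (p = 0.571). None of the 8 ratio tests passed an adjusted p of 0.05 with all samples in. Of the 19 other proteasome genes listed, all were tested and edgeR called 0 in any comparison, which at the same share of all genes (4.16%) says little.

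**Figure D4:**
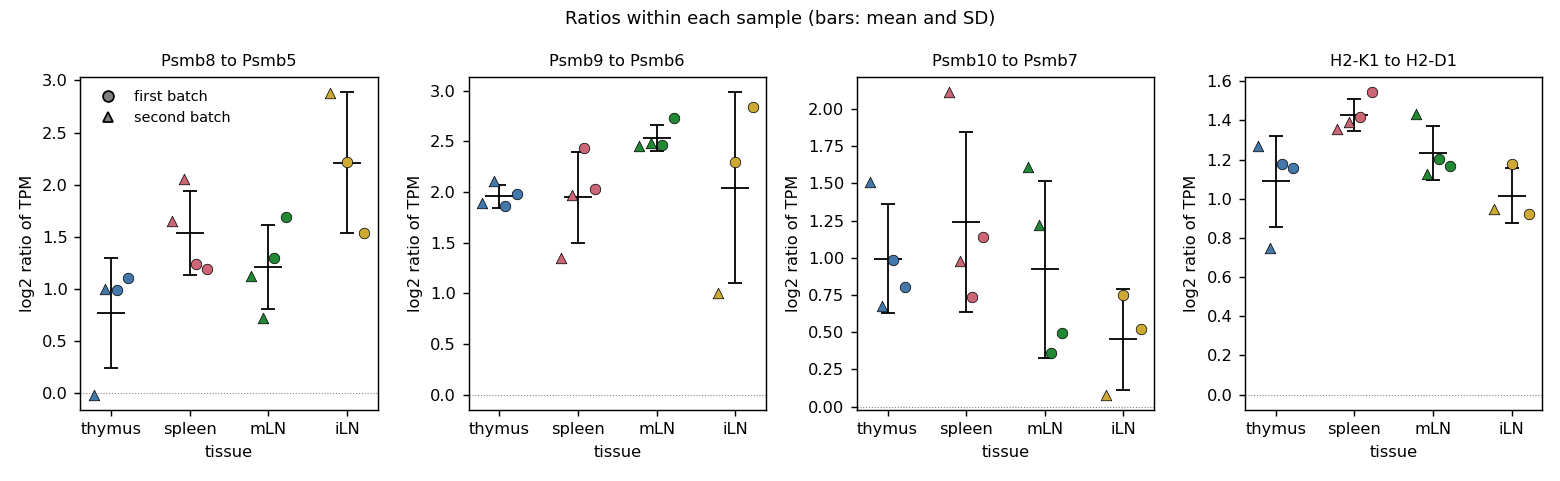
Log2 ratio of TPM within each sample by tissue for Psmb8 to Psmb5, Psmb9 to Psmb6, Psmb10 to Psmb7 and H2-K1 to H2-D1, with the mean and SD as bars, circles for the first batch and triangles for the second. Thymus and spleen do not overlap for Psmb8 to Psmb5 (-0.02 to 1.10 against 1.19 to 2.05) or H2-K1 to H2-D1 (0.75 to 1.27 against 1.35 to 1.54).

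Cd1d1, which encodes the molecule that iNKT cells recognise, was low in these cells. It had 7.53, 7.35, 8.26 and 10.8 CPM in the thymus and 27.7, 4.06, 11.7 and 9.97 CPM in the spleen. It had 3.24, 10.7, 11.9 and 14.1 CPM in the mLN and 4.13, 11.4 and 5.64 CPM in the iLN. Spleen replicate 1 stood far above the other 14 samples, which ran from 3.24 to 14.1 CPM with every pair of tissues overlapping. The largest difference was -1.08 in iLN minus spleen (SE 0.64, edgeR adjusted p = 0.437), and without spleen replicate 1 it was -0.26. In thymus minus spleen it was -0.72 (SE 0.57, edgeR adjusted p = 0.778), and without spleen replicate 1 the sign turned, to 0.24. That sample also had the highest summed B cell and class II markers, 181 and 325 CPM. Over the 15 samples r between log2 Cd1d1 and log2 summed B cell markers was 0.38 (rho -0.11), and it was -0.22 without the 2 farthest samples, -0.01 in the first batch and 0.75 in the second, so that relation rests on few samples. With the class II sum r was 0.22 (rho 0.25), 0.13 without the 2 farthest samples, 0.70 in the first batch and 0.35 in the second. The part of other cells in the Cd1d1 level was not tested. Cd1d1 shares 19.1% of its 50-base stretches with Cd1d2, which had at most 1.08 CPM in any sample.

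**Figure D5:**
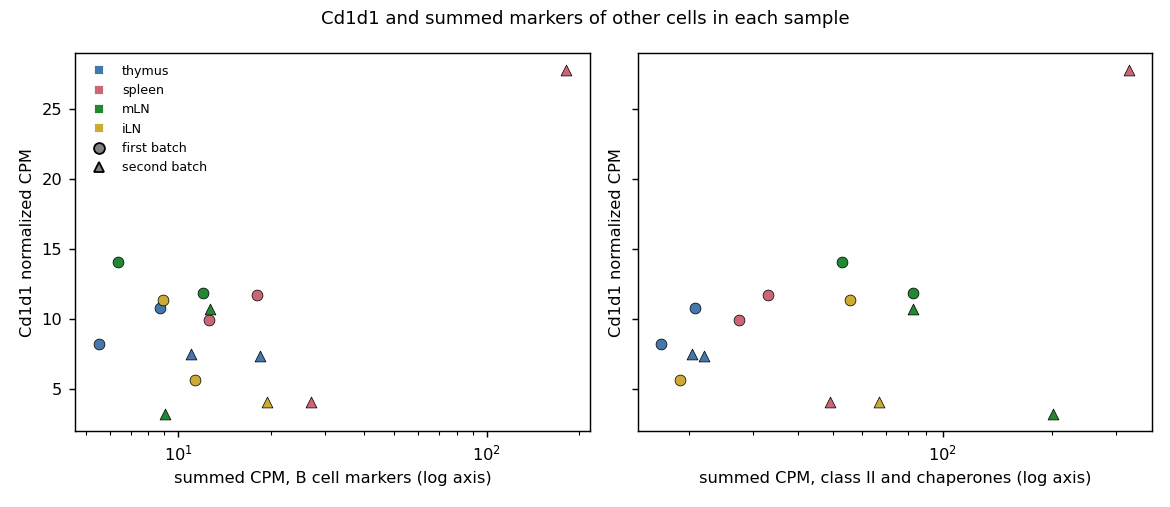
Level of Cd1d1 in CPM against the summed CPM (log axis) of 8 B cell markers (left) and 7 MHC class II and chaperone genes (right) in each of the 15 samples, coloured by tissue, with circles for the first batch and triangles for the second. Spleen replicate 1 is highest on every axis (27.7 CPM of Cd1d1), and the other 14 samples lie at or below 14.1 CPM of Cd1d1.

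Genes that act on class I transcription were taken from 2 further lists. Of 9 genes for the proteins that assemble on class I promoters (the RFX, NF-Y and CREB families and Ciita), edgeR called 0 in any comparison, against 4.16% of all genes called in at least 1. Of 17 genes of interferon and NF-kB signalling, all tested, 3 were called in at least 1 directional comparison, against 3.94% of all genes. Ifngr2, a chain of the interferon-gamma receptor, had 2.22, 2.94, 1.38 and 1.90 CPM in the thymus and 4.05, 2.55, 0.997 and 1.83 CPM in the spleen. It had 28.7, 16.4, 15.6 and 8.09 CPM in the mLN and 10.05, 8.40 and 20.5 CPM in the iLN. All 7 lymph node samples lay above all 8 others, and the log2 fold change was 2.85 (SE 0.39, edgeR adjusted p = 1.94e-04), 3.06 in the first batch and 2.37 in the second, where neither batch passed alone. Ifngr2 and Nlrc5 thus differed in opposite directions between lymph node and the other tissues.

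Ifngr1, the other chain of that receptor, was higher in the thymus, with 159, 228, 229 and 250.1 CPM there against 87.2, 56.2, 104 and 122 CPM in the spleen. The log2 fold change was 1.25 in thymus minus spleen (SE 0.22, edgeR adjusted p = 0.00236), and 1.08 and 1.41 within batches. It was -1.60 in mLN minus thymus (edgeR adjusted p = 2.00e-04). The first of these calls was lost without thymus replicate 2 (1.13), thymus replicate 4 (1.24) or spleen replicate 2 (1.11). Jak2, a kinase bound to the receptor, was lower in the thymus than in the spleen, by -1.03 (SE 0.20, edgeR adjusted p = 0.00486). All 4 thymus samples (157, 193, 128 and 147 CPM) lay below all 4 spleen samples (355, 349.7, 269.6 and 295 CPM). In TPM, however, thymus replicate 2 (64.8 TPM) lay above spleen replicate 3 (49.4 TPM). The Jak2 call was lost without thymus replicate 1 (-1.01), 3 (-0.96) or 4 (-1.02) or spleen replicate 1 (-0.99), 2 (-0.99) or 4 (-1.04). Within batches it was -1.05 and -1.03. The thymus minus spleen calls of Ifngr1 and Jak2 were also lost in either batch alone, with limma and with no batch term, and the mLN minus thymus call of Ifngr1 in either batch and with limma.

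The relation between Nlrc5 and the other 9 genes was mixed. After each batch's mean was removed, r between log2 CPM of Nlrc5 and of the others over the 15 samples was 0.59 with Tap1, 0.56 with H2-K1, 0.49 with Psmb9 and 0.48 with Cd1d1. It was 0.24 with Tap2, 0.21 with H2-D1, 0.18 with Psmb8, 0.03 with Tapbp and -0.54 with B2m. Within the first and second batch r was 0.46 and 0.80 for Tap1, 0.76 and 0.18 for H2-K1, and -0.41 and -0.73 for B2m. Without the 2 samples farthest from the median, r was 0.48 for Tap1, 0.41 for H2-K1 and -0.69 for B2m, but it fell to 0.25 for Cd1d1, -0.05 for Psmb9, -0.06 for Psmb8 and -0.65 for Tapbp, and rose to 0.51 for H2-D1 and 0.28 for Tap2. Over all 45 pairs among the 10 genes the median r was 0.16, from -0.54 to 0.73, and 16 of the 45 were below 0. These values are descriptions over samples that share tissues and batches.

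The 10145 genes whose mean reached 5 CPM were ranked by the same measure, and those most like Nlrc5 over the 15 samples were Sytl3 (r = 0.92), Ccnd3 (0.92) and Mir142hg (0.91). The genes most like B2m were mt-Co2 (r = 0.91), Tomm6 (0.90) and Fkbp3 (0.88), of which mt-Co2 is encoded by the mitochondrial genome. The genes most like Cd1d1 were Anks1 (r = 0.84), Sh2d3c (0.83) and Nfrkb (0.82), with r of 0.72, 0.71 and 0.47 in the first batch and 0.88, 0.91 and 0.91 in the second, which holds spleen replicate 1. Each list was picked as the highest r among 10145 genes over 15 samples. How high such a pick runs by chance was not tested.

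By position, 7 of the 10 genes lie on chromosome 17 in GRCm38, within 1351601 bases, in the order Tapbp, H2-K1, Psmb9, Tap1, Psmb8, Tap2 and H2-D1. Psmb9 and Tap1 start head to head and overlap by 212 bases on opposite strands, Psmb8 begins 495 bases after Tap1, and Tap2 begins 2072 bases after Psmb8. The r between Tap1 and Psmb9 was 0.42 and between Tap1 and Psmb8 -0.05. B2m lies on chromosome 2, Nlrc5 on chromosome 8 and Cd1d1 on chromosome 3. Nlrc5 overlaps the noncoding gene 9330175E14Rik on the other strand by 748 bases, and that gene had a mean of 15.1 CPM. Tapbp overlaps Zbtb22, on the same strand with a mean of 11.9 CPM, so the split of reads between the genes of either pair is uncertain.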

How the data were processed

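RNA of sorted iNKT cells was sequenced by the authors in 15 samples. The deposited files, 1 per library, hold RSEM output made by the authors with cutadapt 1.7.1, Bowtie2 2.2.9 and RSEM 1.2.31 against GRCm38. Expected counts were deposited per gene without normalization, TPM was computed by the authors from effective gene length and scaled per sample, and FPKM, also deposited by the authors, was not used. The annotation release is not given in the sources used here. The genes were matched by Ensembl gene ID, and the members and all gene lists were chosen with earlier results of these data known.

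Rounded expected counts were filtered (filterByExpr), scaled by TMM and fitted with edgeR 4.0.16 under R 4.3.3 (quasi-likelihood, robust, tissue and batch), with p-values adjusted by Benjamini-Hochberg over 13600 genes. CPM in the text is on this scale. A call needs an adjusted p under 0.01 and a fold over 1.5, and the test over all 4 tissues has no fold minimum. Log2 ratios of TPM were tested by exact permutation (two-sided), adjusted over 8. The calling code was tested on simulated data. Correlations use log2 CPM with a pseudocount of 0.5, and marker sums a pseudocount of 1. Batch means were removed except in correlations with marker sums. Promoters were read from a RefSeq table.

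Alternatives were RLE scaling, DESeq2 1.42.0, limma 3.58.1 on log2(TPM + 1), no filter, no batch term, a minimum of 10 counts in each sample, the replicate number as a factor, only the groups compared, each batch alone, leaving out each sample, dropping mitochondrial and rRNA-overlapping genes, summing heavy chain genes and an adjusted p under 0.05 with no fold minimum. For the ratios they were expected counts, the replicate number, permutation within batches, each batch alone and leaving out each sample. Genes named are all 10 members, up to 8 genes per pathway list called in a comparison, the genes of the 4 ratios, each marker list's most abundant gene and its markers at 0, and the 3 genes most like each of Nlrc5, B2m and Cd1d1. 9330175E14Rik, Zbtb22, Cd1d2, H2-Bl, Zbtb16 and Il2rb were named after their values were seen. iLN replicate 1 was not analysed here.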

Additional observations from a re-analysis of the deposited data

Results flagged for a closer look

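Among 81 sets of 4 samples of 1 tissue, covering gene levels, ratios and marker sums, 7 held a sample that stood far from the other 3 for the width of the set. Chance alone gives about 1 in 20 sets.

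In the mLN, replicate 1 had 69.0 CPM of H2-Q5 against 30.9 to 34.95 CPM in the other 3 samples, and 80.8 CPM of H2-Q10 against 19.8 to 28.5 CPM. The log2 ratio of Psmb8 to Psmb5 was -0.0172 in thymus replicate 1 against 0.99 to 1.10 in the other thymus samples. The log2 ratio of Psmb9 to Psmb6 was 2.73 in mLN replicate 4 against 2.46 to 2.48.

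In spleen replicate 1 the summed B cell markers came to 181 CPM against 12.6 to 26.9 CPM in the other spleen samples, and the summed MHC class II and chaperone genes to 325 CPM against 27.5 to 48.99 CPM. Summed stromal and endothelial markers were low in spleen replicate 2, at 34.3 CPM against 53.7 to 57.1 CPM. The cause of none of these was tested.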

How the results depend on the processing

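The lower Nlrc5 level in lymph node cells kept its direction under every alternative and every left-out sample. Leaving out 1 sample at a time gave log2 fold changes of -1.62 to -1.28 in iLN minus spleen, -1.52 to -1.17 in iLN minus thymus and -1.13 to -0.91 in lymph node minus spleen and thymus. The call was lost within each batch, and with limma on log2(TPM + 1). The cause was not tested. Under these alternatives the count of the 10 genes called fell to 0 in these 3 comparisons and over the 4 tissues. It was also 0 in iLN minus spleen with only those groups in the fit (Nlrc5 -1.44, edgeR adjusted p = 0.0129). The limma values of Nlrc5 were -1.23, -1.14 and -0.87.

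The count rose to 2 over the 4 tissues (H2-K1 and Nlrc5) with DESeq2, without mitochondrial and rRNA-overlapping genes, and at an adjusted p under 0.05, and with heavy chains summed (the sum and Nlrc5). It was 2 in iLN minus spleen with heavy chains summed or at an adjusted p under 0.05, 1 in thymus minus spleen at an adjusted p under 0.05 (H2-K1), and 1 in iLN minus mLN with no filter (Psmb9). Leaving out 1 sample gave counts of 0 to 1 in iLN minus spleen and in iLN minus thymus, 1 in lymph node minus spleen and thymus and over the 4 tissues, and 0 in the other 4 comparisons. The second batch holds only 1 iLN sample, replicate 2.

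The replicate numbers were checked for pairing. The labels give each number a unit name shared by the tissues but do not say that it is 1 mouse. Deviations from tissue means had a mean r of 0.12 between samples of the same number (lowest 0.00), 0.11 between other samples of the same batch and -0.11 between batches, and 10 of 15 samples correlated best with their own number. With the means of each tissue and batch removed, r between samples of the same number was small but always positive (mean 0.0231, 0.00312 to 0.0633, 18 pairs). The main fit took the samples as unpaired. With a replicate block in place of batch, Nlrc5 was again the 1 gene called, in the same 4 tests (-1.48 in iLN minus spleen, -1.36 in iLN minus thymus, -1.03 in lymph node minus spleen and thymus). The block changed no ratio's side of the threshold (log2 ratio of Psmb8 to Psmb5 in lymph node minus spleen and thymus 0.42).

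The fold changes that changed sign, apart from member values given only as counts by sign, were 2 in thymus minus spleen. They were Nlrc5 without spleen replicate 4 (4.44e-04, the highest of a range from -0.17) and Cd1d1 without spleen replicate 1 (0.24, range -0.98 to 0.24). The ratios that changed sign were also in thymus minus spleen. Psmb9 to Psmb6 did so from expected counts (-0.00992), in the first batch (-0.31), without thymus replicate 2 (-0.0378) or without spleen replicate 1 (-0.19, range -0.19 to 0.17). Psmb10 to Psmb7 did so without spleen replicate 1 (0.0424, the highest of a range from -0.42). The median of the 10 genes in iLN minus thymus (-0.08) changed sign too, to 0.04 without iLN replicate 4 and 0.01 with limma. Psmb8 to Psmb5 in thymus minus spleen was -0.17 in the first batch and -1.36 in the second, and -0.88 to -0.50 with 1 sample left out. With 1 sample left out, the lymph node differences ran from 0.28 to 0.64 for Psmb8 to Psmb5, 0.29 to 0.59 for Psmb9 to Psmb6 (passing without iLN replicate 2), -0.54 to -0.25 for Psmb10 to Psmb7 and -0.19 to -0.08 for H2-K1 to H2-D1, and the last was -0.40 to -0.22 in thymus minus spleen. The median over all genes moved by over 0.1 in iLN minus spleen with no filter (-0.12) and in the second batch alone (-0.13).

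Counts over all genes varied with the method. In iLN minus spleen, iLN minus thymus, lymph node minus spleen and thymus, and over the 4 tissues, edgeR called 211, 204, 234 and 459 genes. DESeq2 called 556, 472, 478 and 1002, limma 87, 108, 104 and 212, and edgeR with no filter 544, 480, 532 and 1134. The same counts in edgeR were 81, 114, 95 and 180 in the first batch, 4, 7, 2 and 41 in the second, and 530, 468, 579 and 894 at an adjusted p under 0.05. Without a batch term the first 2 fell to 129 and 123, and with only the groups compared the first fell to 86. In thymus minus spleen, mLN minus spleen, mLN minus thymus and iLN minus mLN the counts were 179, 89, 217 and 64 in edgeR, 387, 248, 414 and 276 in DESeq2, 101, 13, 111 and 46 in limma, and 393, 273, 435 and 279 with no filter. Leaving out 1 sample gave 24 to 99 in mLN minus spleen, 108 to 267 in iLN minus spleen, 104 to 236 in iLN minus thymus, 125 to 235 in mLN minus thymus, 114 to 222 in thymus minus spleen and 158 to 255 in lymph node minus spleen and thymus.

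The 3 iLN samples limit each iLN test. A difference that did not pass is not shown to be absent.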

Other observations

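A marker list for another cell type, not described further here, had 3 of 5 tested genes called lower by edgeR in mLN minus spleen (against 0.654% of all genes). Of these 5, 1 was lower in iLN minus spleen (against 1.55%) and 2 in lymph node minus spleen and thymus (against 1.72%). Its part in the lower Nlrc5 and H2-Q levels was not tested. Markers of 3 further cell types were summed in CPM per sample. Stromal and endothelial genes (6 genes, Pecam1 the most abundant, Col3a1 and Pdpn at 0 in every sample) came to 66.0 to 102 CPM in the 7 lymph node samples and to 29.4 to 58.6 CPM in the 8 spleen and thymus samples, with no overlap. Nearly all of it was Pecam1 (67.9 of 67.9 CPM in mLN replicate 1), so the difference is that of 1 gene and not of the list. Their part was not tested.

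Dendritic cell and macrophage genes (13 genes, Cst3 with the highest mean, Clec9a at 0 in every sample) ran from 37.8 CPM in thymus replicate 1 to 127 CPM in spleen replicate 1. Double positive thymocyte and CD8 T cell genes (8 genes, Cd4 the most abundant) ran from 86.5 CPM in thymus replicate 3 to 474 CPM in mLN replicate 1. That sum is mostly Cd4 (464 CPM in mLN replicate 1), so it is no measure of thymocytes, and without Cd4 the sum was highest in the thymus. Of the 5 genes tested, 1 was higher by edgeR in the thymus than in each other tissue, and in mLN minus thymus Cd4 was called as well. In the dendritic cell list 1 of 5 was lower in thymus than in spleen. Of all genes, 1.32% were called in thymus minus spleen, 1.6% in mLN minus thymus and 1.5% in iLN minus thymus. Their part was not tested.

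The share of expected counts on mitochondrial genes was 11.4% in iLN replicate 3, which had the lowest B2m level (1961 CPM), and 24.1% in iLN replicate 2, which had the highest (3406 CPM). Over the other samples it ran from 13.2% in spleen replicate 4 to 25.6% in thymus replicate 1. The share on nuclear genes that overlap rRNA repeats varied more, from 3.46% in iLN replicate 4 to 34.6% in spleen replicate 3. In the first batch it was 10.6% and 14.6% in the mLN, 3.46% and 27.7% in the iLN and 23.7% to 34.6% in spleen and thymus, while in the second it was 3.69% to 7.20% in all. Its part was not tested beyond the fit without these genes, in which the Nlrc5 calls were kept.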
